A study of Mus musculus with 16 samples.

Results

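Apn-PH20 mice (PH20_TG), whose adipocytes make the hyaluronidase PH20, were compared with littermate Apn-rtTA controls (PH20_WT) in inguinal white adipose tissue (iWAT), by RNA sequencing of whole tissue. The comparison used 8 of the 16 libraries of the series, 4 per group, chosen by their labels, and all 54532 genes of the expression table. The males were 8 to 10 weeks old at the start and ate chow with doxycycline at 200 mg/kg for 5 days, controls included. Every mouse carried Apn-rtTA, in which the adiponectin promoter drives the doxycycline-dependent activator rtTA in adipocytes. PH20_TG mice also carried TRE-PH20, the mouse PH20 coding sequence behind a promoter that rtTA switches on. The remaining 8 libraries came from mice with a Has2 transgene and from their own Apn-rtTA littermates. They shared no sample with the PH20 groups and were used to sort genes by cell type and as a contrast.

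Hyaluronan (HA) is a long, unbranched sugar polymer that HA synthases (Has1, Has2, Has3) extrude through the plasma membrane into the extracellular matrix, where it holds water and binds receptors such as Cd44 and Lyve1. Hyaluronidases cut it. Hyal1 and Hyal2 do so in most tissues, and PH20, the product of Spam1, is the enzyme of sperm that works at neutral pH. In fat, HA lies among fibrillar collagens and the basement membrane of collagen IV and laminin that surrounds each adipocyte. The inguinal pad also holds a lymph node, rich in B and T cells, and lies on the muscles of the hind limb, so that a dissected pad can carry RNA of both.

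Reads on genes numbered 14421692 to 20060359 per library (median 16729446), and 16643 to 21534 genes had a read. The authors deposited FPKM, read counts scaled by gene length and by library depth. Each gene with a mean of at least 50 reads, 12532 in all, was tested with limma on log2(FPKM + 0.1), two-sided, and a fold change below is a difference on that scale. A gene is called higher or lower, or said to have risen or fallen, at an unadjusted p-value under 0.05, the threshold of the study. At that threshold 401 genes were higher in PH20_TG (3.2% of those tested) and 425 were lower (3.39%). All 4 PH20_TG libraries lay on 1 side of all 4 controls for 211 of the higher genes (1.68%) and 209 of the lower ones (1.67%). Under random labels, 4 libraries lie apart from 4 others with a probability of 0.0286, both directions counted. A lack of overlap is therefore weak evidence for a single gene. After Benjamini-Hochberg adjustment 0 genes passed with limma, the smallest adjusted p-value being 0.506, and with voom weights 413 and 399 genes were called and 0 passed. The count of lower genes was 274 without PH20_TG2 and 650 without PH20_WT2.

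The tissue carried the label's markers in every library. The summed FPKM of 32 adipocyte genes, such as Adipoq and Plin1, was 18509 to 38020 in PH20_WT and 22557 to 42542 in PH20_TG. In bulk tissue, fewer cells of a type and less RNA per cell cannot be told apart. Several libraries stood apart from the rest of their group. PH20_WT1 and PH20_WT3 were rich in B and T cell RNA, with a summed FPKM of 1370 and 613 over 26 B cell genes against 135 to 194 in the other 6 libraries, and of 907 and 345 over 29 T cell genes against 30.6 to 82.6. PH20_TG1 and PH20_TG4 were high in genes of the immediate early response, with mean log2 levels of 3.46 and 3.66 against 2.41 to 3.11 in the others. Mitochondrial genes took 11.6% of the reads in PH20_TG1 and 13% in PH20_TG4, against 7.58% in PH20_TG2, 7.51% in PH20_TG3 and 7.98% to 13.6% in PH20_WT, and the small RNA gene Gm23935 took 0.478% in PH20_TG4 against at most 0.073% in the other 7 libraries. Their part in the split of the PH20_TG libraries was not tested. Fits without PH20_WT1 and PH20_WT3 or without PH20_TG1 and PH20_TG4 are given beside the main results that differ between these libraries, and both choices were made after the values had been seen. Over all 12532 genes tested, leaving out PH20_TG1 and PH20_TG4 gave 702 higher and 1042 lower, more than the main fit. Leaving out PH20_WT1 and PH20_WT3 gave 315 higher and 262 lower. List counts from these fits stand against these totals.

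**Figure D1:**
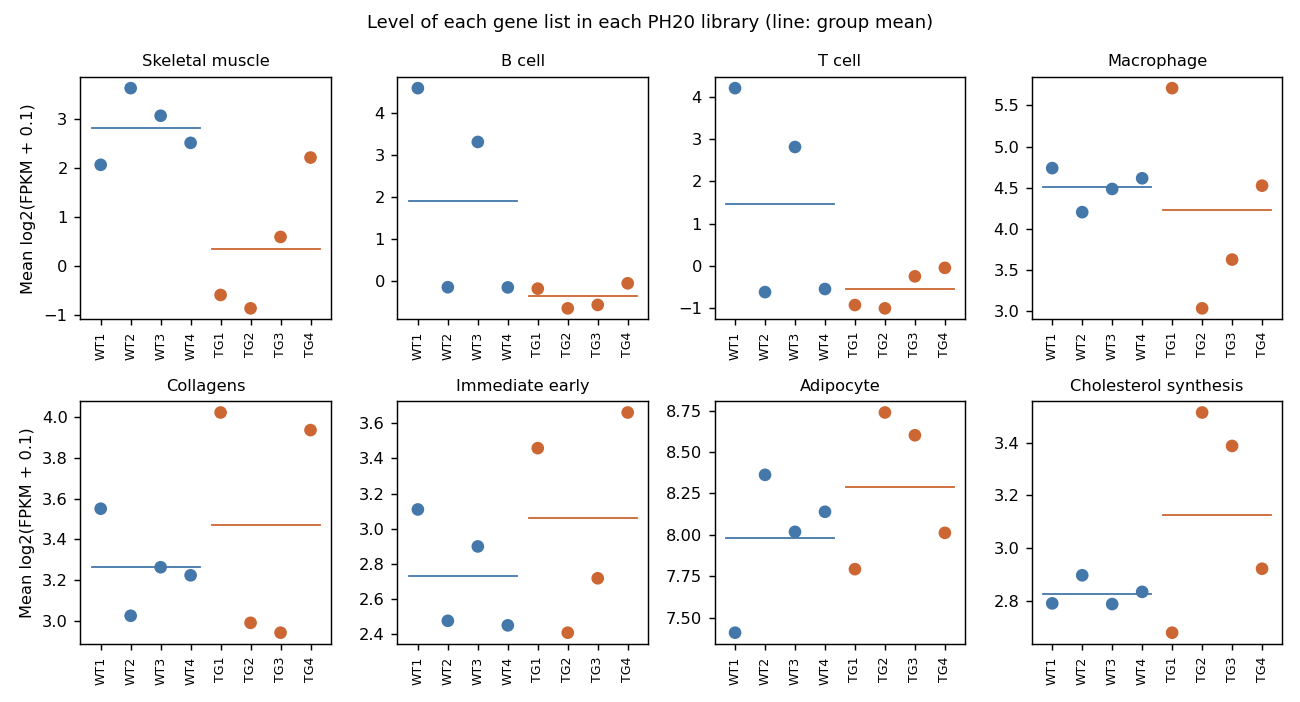
Each panel plots, for 1 gene list, the average of log2(FPKM + 0.1) over its tested genes (vertical axis) in each of the 4 PH20_WT (blue) and 4 PH20_TG (orange) libraries, with a line at each group's mean. Skeletal muscle is lower in 3 of 4 PH20_TG libraries, B and T cell genes stand high only in PH20_WT1 and PH20_WT3, and PH20_TG1 and PH20_TG4 lead the immediate early and collagen panels.

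Of 16 genes that make or cut HA, 14 had a read and 9 reached the minimum for testing. Spam1, the gene of the transgene (ENSMUSG00000029682, GRCm38 chromosome 6 from 24791188 to 24801048), had 0 reads in the 4 PH20_WT libraries, 0 in PH20_TG1, 6 in PH20_TG2, 12 in PH20_TG3 and 5 in PH20_TG4. A count of 0 allows up to 3 reads, an FPKM of 0.0790 in PH20_TG1, by counting error alone. The transgene RNA was thus detected in 3 of 4 PH20_TG libraries and was not detectable at this depth in PH20_TG1.

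Of the 9 tested genes, 1 was called, Hyal2, the membrane-anchored hyaluronidase that starts the breakdown of extracellular HA. Hyal2 FPKM was 6.03, 10.6, 7.47 and 9.59 in PH20_WT and 11.7, 11.6, 13.9 and 10.8 in PH20_TG. Every PH20_TG library lay above every PH20_WT library, by 0.53 on the log2 scale (SE 0.19), and the limma adjusted p-value was 0.702. The call was lost without PH20_TG3 (0.46) or without PH20_WT3 (0.49), and with PH20_WT1 and PH20_WT3 both left out the change was 0.24. With a skeletal muscle score, a B cell score (both described below) or both as covariates, 0 of the 9 tested genes were called. The synthases split the transgenic group. Has2 reads were 87, 51, 38 and 22 in PH20_WT and 241, 32, 7 and 197 in PH20_TG. Has1 reads were 18, 7, 13 and 59 in PH20_WT and 220, 20, 3 and 133 in PH20_TG. Both synthases were thus highest in PH20_TG1 and PH20_TG4 and in PH20_TG3 lowest of all 8 libraries. The enzyme Ugdh, which makes the UDP-glucuronate that HA is built from, was likewise highest in PH20_TG1 and PH20_TG4, with FPKM of 13.4, 8.16, 11.5 and 11.9 in PH20_WT and 32.7, 10.2, 6.97 and 30.7 in PH20_TG, and none of these 3 genes was called. The log2 fold changes of Has1, Has2 and Ugdh were 1.13, 0.60 and 0.56, and each turned on single libraries. Without PH20_TG1 they were 0.46, 0.02 and 0.23, without PH20_TG4 0.61, 0.03 and 0.26, without PH20_TG2 1.53, 0.97 and 0.79, and without PH20_TG3 1.93, 1.39 and 0.97, where Ugdh was called. With PH20_TG1 and PH20_TG4 both left out they were below 0, at -0.65, -1.12 and -0.38, none called, and the median of the 9 tested genes went from 0.45 to -0.26. Has3, Hyal3, Hyal4 and Cemip had at most 65 reads in any library and were not tested. Hyal1, the lysosomal hyaluronidase (log2 fold change 0.34, SE 0.29), Hexa (0.23, SE 0.24) and Gusb (0.45, SE 0.30), whose enzymes trim HA fragments in the lysosome, and the cell-surface hyaluronidase Tmem2 (-0.26, SE 0.34) differed by less than 2 SE. Among 12 tested HA receptors and binding proteins, 1 was called, the HA-binding proteoglycan Ncan (1.45, SE 0.53), which was not called without PH20_TG2 (1.00), PH20_TG3, PH20_WT1 or PH20_WT4.

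To separate adipose tissue from muscle and lymph node, each gene was correlated with a skeletal muscle score and a B cell score over the 8 Has2 libraries, which the PH20 comparison does not use. A score is the mean log2 level of a list, with the gene itself left out and values centred on the group means, and a gene tracked a score at a correlation of 0.8 or more. By this rule 232 genes tracked skeletal muscle, 764 tracked the lymph node and 11536 tracked neither. Before centring, the B cell score was 4.76 in Has2_WT1, 4.29 in Has2_WT2, -0.70 in Has2_WT3 and -0.67 in Has2_WT4. In Has2_TG it ran only from -0.96 to -0.52, so tracking the lymph node rested mainly on the difference within Has2_WT. The lymph node class also holds genes of other lists, among them 15 of 76 ribosomal protein genes and 8 of 43 immediate early genes. Before centring, the muscle score was 2.53, 3.37, -1.22 and -1.10 in Has2_TG1 to Has2_TG4, against 0.02 to 1.27 in Has2_WT. Tracking muscle thus rested mainly on the difference within Has2_TG. The muscle class holds 6 of 22 thermogenic genes and 5 of 25 genes of fatty acid oxidation, so its members are not all muscle genes. Of the 232 genes that tracked muscle, 44 were lower in PH20_TG and 1 was higher. Their median log2 fold change was only -0.07, and 59.05% lay below 0, against 48.7% of all genes tested. Of the 764 that tracked the lymph node, 96 were lower and 1 was higher, and 91.2% had a log2 fold change below 0. The genes that tracked neither made up 99.5% of the higher genes (399) and 67.1% of the lower ones (285), against 92.05% of all genes tested. The rule takes only positive correlations, so a gene that moves opposite to a score also counts as neither. The share of higher genes in that class therefore cannot show that their rise is one of adipose tissue. The groups were apart for 15 of the 44, 34 of the 96, 209 of the 399 and 160 of the 285.

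**Figure D2:**
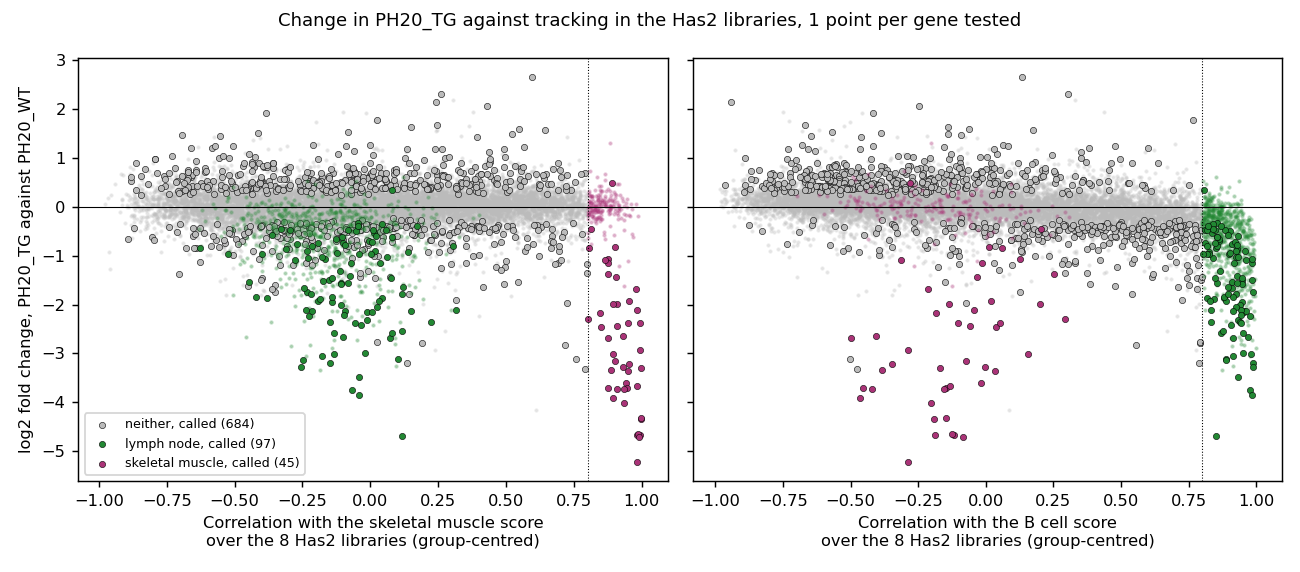
Each point is a tested gene, with its log2 fold change in PH20_TG against PH20_WT (vertical axis) against its correlation with the skeletal muscle score (left) or the B cell score (right) over the 8 Has2 libraries. Outlined points are called genes, coloured by class, and beyond the dotted line at 0.8 nearly all called genes lie below 0 (44 of 45 for muscle, 96 of 97 for lymph node).

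Skeletal muscle genes fell together. Of 12 tested genes of fast fibres, 10 were lower and 0 were higher, with a median log2 fold change of -3.84, against a median of 0.01 over all genes tested. Of 31 tested genes shared by fibre types, 22 were lower and 0 were higher (median -2.10), and of 2 genes of slow fibres 1 was lower. The parvalbumin gene Pvalb, a calcium buffer of fast fibres, had FPKM of 29.8, 116, 77.4 and 91.7 in PH20_WT and 0.673, 0, 4.32 and 37.6 in PH20_TG. The sarcomere gene Actn3 had FPKM of 6.78, 41.4, 25.1 and 17.3 in PH20_WT and 0, 0.0869, 1.78 and 8.56 in PH20_TG. In both, PH20_TG1 to PH20_TG3 lay below every control and PH20_TG4 fell among the controls. By log2 fold change the 5 leading genes stood at -5.22 for Pvalb (SE 1.55), -4.70 for Tcap (SE 1.35), a cap protein of the Z disc, -4.67 for the calcium pump Atp2a1 (SE 1.35), -4.66 for Actn3 (SE 1.32) and -4.65 for the fast myosin Myh4 (SE 1.45), each with a limma adjusted p-value of 0.664 to 0.666. Their size turned on single libraries. Pvalb moved to -3.80 without PH20_TG2 and -6.66 without PH20_TG4, Atp2a1 at -3.39 and -5.93, and Myh4 at -3.12 and -5.83. Actn3 was at -3.70 without PH20_TG1, -4.0 without PH20_TG2 and -5.84 without PH20_TG4, and Tcap at -3.80, -4.01 and -6.04. All 5 stayed called in each of these fits. With PH20_TG1 and PH20_TG4 both left out, 11 of the 12 fast fibre genes were lower, and with PH20_WT1 and PH20_WT3 left out, 9 were.

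Genes of muscle were found below the correlation of 0.8 as well. Among the 12 genes of largest decrease that tracked neither score and whose groups did not overlap, Klhl41, the sodium channel genes Scn4a and Scn4b, the intermediate filament gene Des and the fructose bisphosphatase gene Fbp2 are known for their expression in muscle. Klhl41, which stabilizes the sarcomere protein nebulin, had FPKM of 2.61, 4.12, 2.55 and 3.34 in PH20_WT and 0, 0.0199, 0.664 and 1.89 in PH20_TG, and its correlation with the muscle score was 0.76. The decrease was -3.12 on the log2 scale (SE 0.89, limma adjusted p = 0.664), or -2.49 without PH20_TG1 and -3.93 without PH20_TG4. Scn4a, the voltage-gated sodium channel of skeletal muscle, fell from FPKM of 0.487 to 1.29 in PH20_WT to 0, 0, 0.0341 and 0.150 in PH20_TG (log2 fold change -2.83, SE 0.47). Des fell from 19.5 ± 3.53 to 7.93 ± 3.62 FPKM (SD, n = 4 each), with no overlap. The class that tracks neither score therefore still holds genes of muscle.

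The promoter of Klhl41 is shown because it carries the motifs of both factor families that are known to switch on muscle genes. The window runs from 250 bases before to 50 bases after the start in RefSeq (GRCm38.p6, chr2:69669870-69670169, + strand). Capitals mark the E-box CAGCTG, 127 bases before the start, and the MEF2 motif, 63 bases before it.
Klhl41: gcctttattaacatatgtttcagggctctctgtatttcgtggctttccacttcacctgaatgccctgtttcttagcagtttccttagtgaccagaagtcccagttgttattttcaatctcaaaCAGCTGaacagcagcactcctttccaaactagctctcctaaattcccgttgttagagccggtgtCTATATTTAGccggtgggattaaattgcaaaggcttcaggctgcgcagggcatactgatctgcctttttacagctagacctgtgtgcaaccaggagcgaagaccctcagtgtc
Both motifs were searched on both strands and do not overlap. Of 32851 RefSeq promoters of the same length, 16.3% hold CAGCTG and 0.56% the MEF2 motif. A match is a description of the letters only.

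Lymphocyte genes fell too, and their decrease rested on PH20_WT1 and PH20_WT3. Of 26 tested B cell genes, 9 were lower and 0 were higher (median log2 fold change -2.24), and of 29 tested T cell genes, 9 were lower and 0 were higher (median -2.10). With voom weights the medians were -2.83 and -2.55, but 0 B cell genes and 1 T cell gene were called lower. Cd79a, the signalling chain of the B cell receptor, had FPKM of 123, 2.14, 50.6 and 1.83 in PH20_WT and 0.561, 1.1, 0.905 and 0.915 in PH20_TG. Fcer2a, the low-affinity IgE receptor of follicular B cells, had 34.9, 0.740, 9.84 and 0.801 in PH20_WT and 0.189, 0.406, 0.0775 and 0.136 in PH20_TG. Both were far higher in PH20_WT1 and PH20_WT3 than elsewhere, and the groups still did not overlap. The log2 fold change was -3.75 for Cd79a (SE 1.28) and -3.85 for Fcer2a (SE 1.14), with limma adjusted p-values of 0.702 and 0.664. Without PH20_WT1 they were -2.67 and -2.81, without PH20_WT2 -4.59 and -4.60, and without PH20_WT4 -4.66 and -4.57. Cd79a was at -3.09 without PH20_WT3. With PH20_WT1 and PH20_WT3 both left out, the median of the B cell list was -0.07 with 4 genes lower, and that of the T cell list was -0.10 with 3 lower and 2 higher. In that fit Cd79a was at -1.13 and Fcer2a at -1.64, and both stayed called.

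The other leading genes that tracked the lymph node were Ly6d, a surface protein of lymphocyte precursors and B cells (log2 fold change -4.69, SE 1.32), the B cell kinase gene Blk (-3.47, SE 1.09) and Ighd, the heavy chain of IgD (-3.28, SE 1.18). Ly6d FPKM was 44.2, 1.71, 22.0 and 1.37 in PH20_WT and 0, 0, 0.242 and 1.60 in PH20_TG, so that PH20_TG4 reached the lower controls. Without PH20_WT1 the changes of Ly6d, Blk and Ighd were -3.81, -2.52 and -2.25, without PH20_WT2 -5.35, -4.06 and -4.13, and without PH20_WT4 -5.45, -4.27 and -3.99. Ly6d was at -5.57 without PH20_TG4, and Ighd was not called without PH20_TG3 (-3.02) or PH20_WT3 (-2.74).

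Genes of the node's own stroma pointed less far. Of 12 tested genes of lymph node stroma and high endothelial venules, 1 was lower, Clu, a gene of follicular dendritic cells among others (log2 fold change -1.06, SE 0.46), and 0 were higher (median -0.55). Its call was lost when PH20_TG1, PH20_TG2, PH20_TG3, PH20_WT1 or PH20_WT3 was left out. Glycam1, a ligand of L-selectin made by the high endothelial venules through which lymphocytes enter a node, had FPKM of 12.0, 0, 3.68 and 0 in PH20_WT and 0, 0, 0.0562 and 0 in PH20_TG. It was found in the same PH20_WT libraries as the B cell genes and was not called. The helper T cell gene Cd4 (-3.05, SE 1.07), the T cell receptor chain Cd3d (-2.58, SE 0.75) and the co-receptor Cd28 (-2.36, SE 0.66) fell with the B cell genes. Without PH20_WT1 the changes of Cd4, Cd3d and Cd28 were -2.16, -1.89 and -1.76, and without PH20_WT2 those of Cd4 and Cd3d were -3.83 and -3.22. Cd4 was not called without PH20_TG1 (-2.50) or PH20_WT3 (-2.75).

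When the muscle and B cell scores of each library were put in the model as covariates, 205 genes were higher (1.64% of 12532) and 86 were lower (0.686%), and 0 passed adjustment with limma. The scores and the group overlap in what they carry, since the variance of the group's estimate grew by a factor of 3.70. The 44 lower genes that tracked muscle had a median log2 fold change of -2.97 without and -0.12 with the scores, and 1 of them stayed called. The 96 that tracked the lymph node went from -1.54 to -0.34, and 2 stayed called. The 399 higher genes that tracked neither went from 0.54 to 0.48, 386 kept their sign and 65 stayed called. The 285 lower genes that tracked neither went from -0.56 to -0.43, 271 kept their sign and 27 stayed called. The lists behind the scores are built into this fit, and the classes were chosen by their correlation with the same scores, so the medians of the muscle and lymph node genes were both bound to shrink. The genes of smallest p-value in this fit included some that were not called without the scores, such as Ccr7, a homing receptor of T cells and dendritic cells, and H2-Oa, a chain that regulates peptide loading in B cells. Ccr7 FPKM was 44.4, 0, 14.3 and 0 in PH20_WT and 0.767, 0.280, 0.273 and 0.852 in PH20_TG, and the change went from -1.44 without to 3.06 with the scores. H2-Oa went from -0.85 to 3.48. Both were listed at 0 in PH20_WT2 and PH20_WT4, and leaving out PH20_WT1 or PH20_WT2 alone moved Ccr7 to 0.16 or -2.77 and H2-Oa to 0.60 or -1.96. The small Maf factor Maff (0.61 without, 1.70 with) and the collagen chaperone gene P3h4 (-0.04 without, 1.27 with) were called with the scores alone, and Maff was also called without PH20_TG2 or PH20_WT3.

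**Figure D3:**
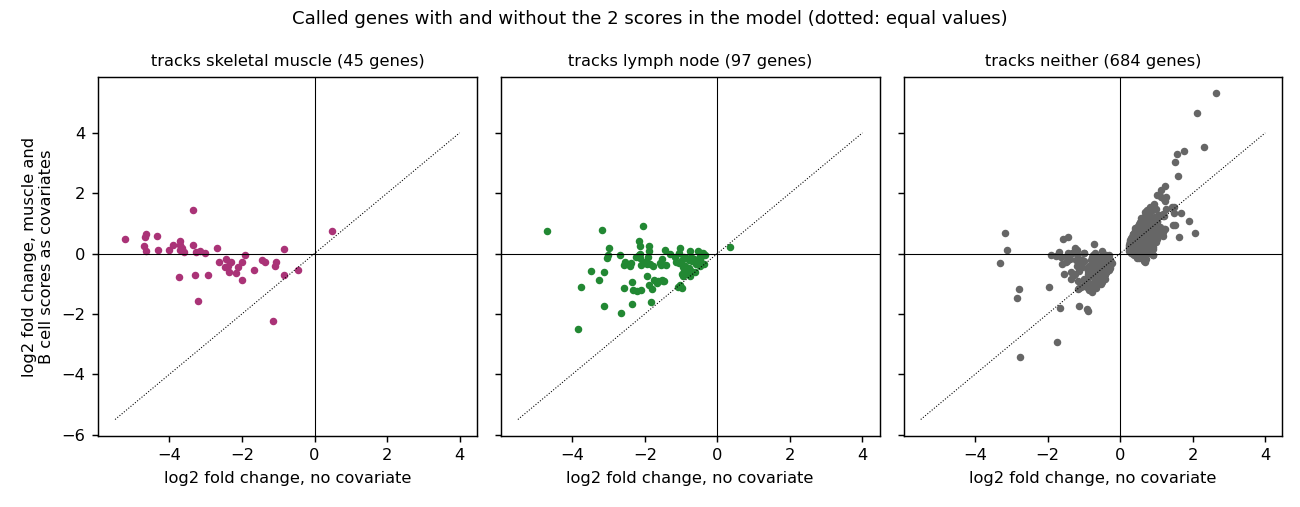
Each point is a called gene, with its log2 fold change without covariates (horizontal) and with the muscle and B cell scores in the model (vertical), in 3 panels by class. Genes that track muscle lie near 0 on the vertical axis (median -0.12), whereas those that track neither lie along the dotted line of equal values (medians 0.48 and -0.43).

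Some collagen genes rose in all PH20_TG libraries, whereas others differed among them. Of 25 tested collagen genes, 7 were higher (Col4a1, Col4a2, Col5a3, Col6a2, Col6a3, Col15a1 and Col18a1) and 1, Col23a1, was lower, and the median log2 fold change was 0.35. Without PH20_TG1 and PH20_TG4, 3 were higher, 3 were lower and the median was -0.23. Leaving out PH20_WT1 and PH20_WT3 gave 4 higher and 0 lower (median 0.50), and quantile normalization gave 3 and 0 (median 0.33). With the muscle score as a covariate, and likewise with both scores, 3 were higher and 0 lower. Col5a3, a chain of collagen V (ENSMUSG00000004098, chromosome 9 from 20770050 to 20815067), had FPKM of 69.1, 72.7, 72.3 and 68.5 in PH20_WT and 111, 120, 107 and 106 in PH20_TG. The groups lay far apart and within each the libraries were close, at 70.7 ± 2.18 and 111 ± 6.66 FPKM (SD, n = 4 each). Col5a3 rose by 0.65 on the log2 scale (SE 0.11, limma adjusted p = 0.506), and over the fits that left out 1 library it ranged from 0.61 to 0.67.

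Col15a1, whose product links basement membranes to the fibrils beneath (ENSMUSG00000028339, chromosome 4 from 47208161 to 47313167), had FPKM of 26.1, 31.9, 30.3 and 29.8 in PH20_WT and 56.4, 52.3, 44.9 and 41.6 in PH20_TG. There was again no overlap, and Col15a1 rose by 0.72 on the log2 scale (SE 0.13, limma adjusted p = 0.563). Col6a3, a chain of the beaded filaments of collagen VI that surround adipocytes, rose from 19.5 ± 3.20 to 33.5 ± 8.54 FPKM (SD, n = 4 each), although PH20_TG2, at 22.0, fell below PH20_WT1, at 23.9. Col5a3, Col15a1 and Col6a3 stayed called whichever single library was left out. Col6a2 (0.62, SE 0.24) was not called without PH20_TG1, PH20_TG4, PH20_WT2, PH20_WT3 or PH20_WT4, and Col23a1 (-0.75, SE 0.30), which tracked the lymph node, without any library but PH20_TG4 or PH20_WT2.

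The collagen IV genes Col4a1 and Col4a2, which code for the main network chains of basement membranes, stand head to head on chromosome 8. Col4a2 FPKM was 78.6, 117, 99.3 and 86.4 in PH20_WT and 138, 166, 118 and 125 in PH20_TG. Col4a1 FPKM was 95.7, 177, 133 and 110 in PH20_WT and 182, 222, 159 and 165 in PH20_TG. The groups were apart for Col4a2, narrowly, and overlapped for Col4a1 because of PH20_WT2. The log2 fold changes were 0.52 for Col4a2 (SE 0.17) and 0.53 for Col4a1 (SE 0.21), with limma adjusted p-values of 0.688 and 0.709. Col4a2 stayed called without any single library. The calls of Col4a1 and of Col18a1, another basement membrane collagen (0.62, SE 0.25), were lost without PH20_TG1, PH20_TG2, PH20_WT1, PH20_WT3 or PH20_WT4. Irs2, an insulin receptor substrate and the next tested gene beside Col4a1, was also higher (0.82, SE 0.24), and the groups did not overlap.

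The start of Col4a2 is shown because both genes share it. The window of Col4a2 lies at chr8:11312555-11312854 (RefSeq, GRCm38.p6, + strand), and capitals mark the 78 bases that it shares with the window of Col4a1 on the other strand, whose start is 21 bases away.
Col4a2: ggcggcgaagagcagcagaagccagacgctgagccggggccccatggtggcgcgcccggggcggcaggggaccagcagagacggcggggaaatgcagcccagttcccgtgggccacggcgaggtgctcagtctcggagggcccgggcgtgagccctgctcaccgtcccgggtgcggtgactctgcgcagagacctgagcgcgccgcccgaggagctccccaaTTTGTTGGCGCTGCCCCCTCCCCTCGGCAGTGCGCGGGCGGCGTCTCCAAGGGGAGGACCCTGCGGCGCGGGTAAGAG
Since the annotated starts overlap and the counting is not stated to use strand, reads from the first bases of the pair could not be told apart.

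Col1a1, Col3a1 and Fn1 had another pattern. Col1a1, the main chain of collagen I, had FPKM of 279, 86.7, 179 and 266 in PH20_WT and 553, 91.7, 131 and 458 in PH20_TG. Col3a1 had 405, 171, 276 and 335 in PH20_WT and 627, 187, 251 and 625 in PH20_TG. For both, PH20_TG1 and PH20_TG4 exceeded every control while PH20_TG2 and PH20_TG3 lay within the control range, and neither gene was called. Fn1, fibronectin, had FPKM of 121, 22.7, 63.6 and 62.5 in PH20_WT and 121, 5.07, 3.05 and 115 in PH20_TG. Fn1 thus fell under every control in PH20_TG2 and PH20_TG3 alone. With PH20_TG1 and PH20_TG4 left out, its log2 fold change was -3.84 against -1.40 in all 8 libraries, Col1a1 was at -0.75 and Col3a1 at -0.38. Leaving out PH20_TG1, PH20_TG2, PH20_TG3 or PH20_TG4 alone put Fn1 at -2.23, -0.71, -0.47 or -2.20, and it was called in none of these 4 fits. Of 46 other matrix proteins, 2 were higher, perlecan (Hspg2, 0.43, SE 0.16) and Mgp (0.82, SE 0.30), an inhibitor of calcification, and 0 were lower, with a median of 0.27. Without PH20_TG1 and PH20_TG4, 2 were higher and 16 were lower, with a median of -0.18. Leaving out PH20_WT1 and PH20_WT3 gave 3 higher and 0 lower (median 0.28). Hspg2 was not called without PH20_TG2, PH20_TG4, PH20_WT1 or PH20_WT3, nor Mgp without PH20_TG1, PH20_TG4 or PH20_WT1.

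**Figure D4:**
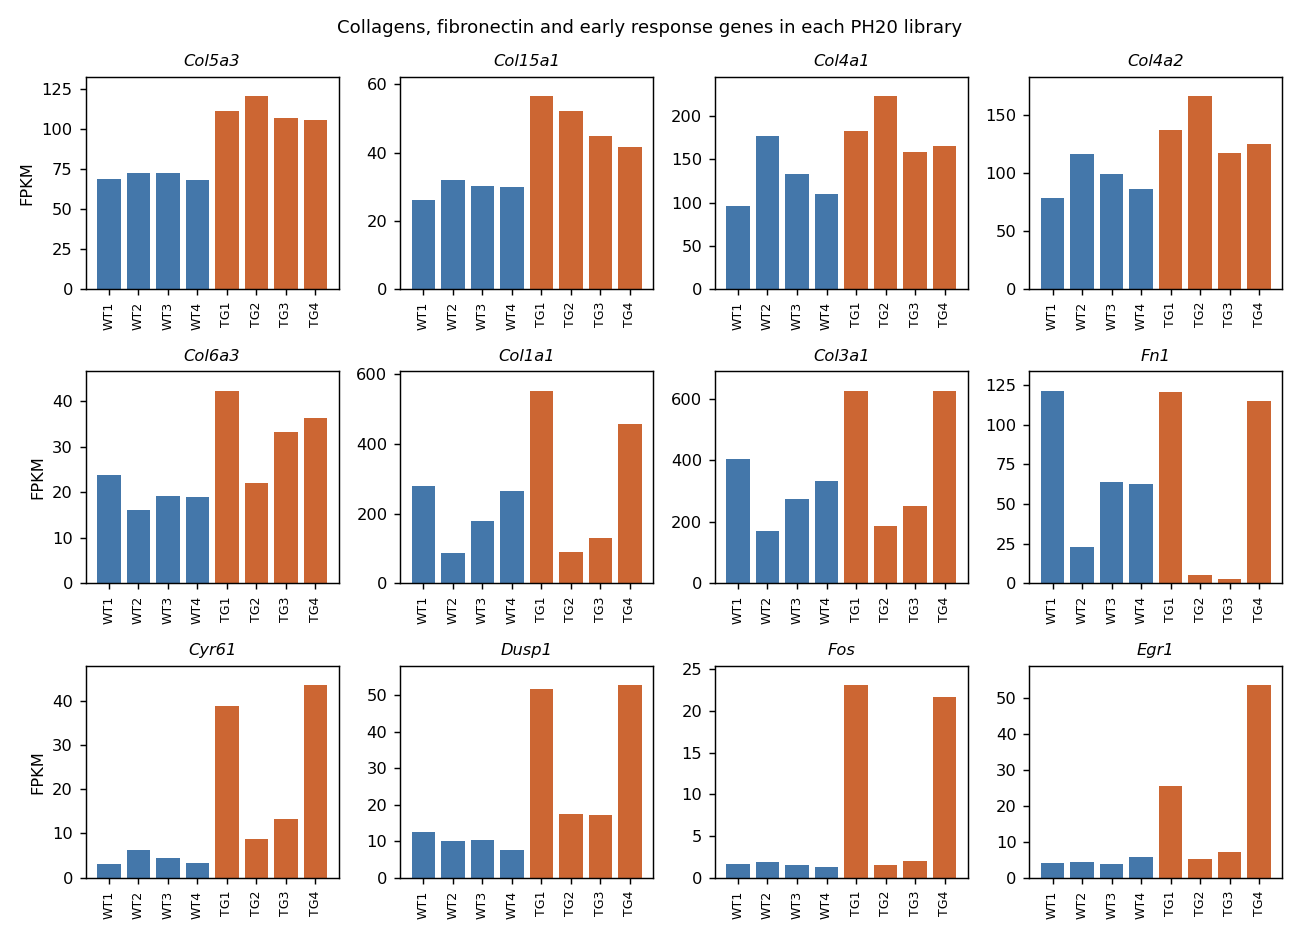
Bars give the FPKM of 12 genes (vertical axes, from 0) in each of the 4 PH20_WT (blue) and 4 PH20_TG (orange) libraries, 1 bar per library. Col5a3 and Col15a1 are higher in all 4 PH20_TG libraries, whereas Col1a1, Col3a1, Fos and Egr1 stand out in PH20_TG1 and PH20_TG4 and Fn1 is low in PH20_TG2 and PH20_TG3.

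Some enzymes and chaperones that modify and fold collagen were higher as well. Of 26 tested, 7 were higher (P4hb, Plod1, Plod2, Serpinh1, P3h1, Crtap and Adamts14) and 0 were lower, and the median log2 fold change was 0.32. The groups were apart for 5 of the 7, where they were apart for 211 of all 401 higher genes. Plod1, a lysyl hydroxylase, had FPKM of 12.4, 14.8, 12.7 and 13.3 in PH20_WT and 17.7, 19.6, 18.9 and 15.1 in PH20_TG (log2 fold change 0.42, SE 0.12). Its paralogue Plod2 rose from 1.45 ± 0.368 to 2.36 ± 0.444 FPKM (SD, n = 4 each). Both stayed called without any single library and had no overlap between the groups. The collagen chaperone Serpinh1 (0.44, SE 0.15) was not called without PH20_TG4, PH20_WT2 or PH20_WT3, and P4hb, a subunit of prolyl 4-hydroxylase (0.33, SE 0.12), without PH20_TG1 or PH20_WT3. The prolyl 3-hydroxylase complex of P3h1 (0.45, SE 0.17) and Crtap (0.28, SE 0.11) and the procollagen N-proteinase Adamts14 (1.00, SE 0.36) also lost their calls in at least 1 of these fits, each without PH20_TG1. With PH20_TG1 and PH20_TG4 left out, 1 enzyme was higher, 1 was lower and the median was 0.05. Leaving out PH20_WT1 and PH20_WT3 gave 3 higher and 0 lower (median 0.42), as did the B cell score as a covariate (median 0.44). With the muscle score as a covariate 0 were called (median 0.40), and with both scores 2 were higher (median 0.62).

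Of 29 tested matrix proteases and inhibitors, 5 were higher, among them Mmp19, Adamts9, Adamts15 and Adam12, and 0 were lower (median 0.26). Without PH20_TG1 and PH20_TG4, 3 were higher, 6 were lower and the median was -0.07. Leaving out PH20_WT1 and PH20_WT3 gave 2 higher and 0 lower (median 0.41). With both scores as covariates 1 was higher and 1 lower (median 0.59). Adamts15, which cleaves the proteoglycans versican and aggrecan, had FPKM of 1.5, 0.938, 1.28 and 0.969 in PH20_WT and 3.56, 1.82, 2.73 and 3.31 in PH20_TG. There was no overlap, and Adamts15 rose by 1.20 on the log2 scale (SE 0.26, limma adjusted p = 0.664), or by 0.90 when PH20_TG1 and PH20_TG4 were left out. Adamts9, another protease of versican, had FPKM of 1.42, 2.20, 1.61 and 1.80 in PH20_WT and 2.54, 2.50, 2.54 and 2.52 in PH20_TG (0.51, SE 0.17). It varied little among PH20_TG libraries and stayed called without any single library, as did the metalloproteinase Mmp19 (0.66, SE 0.22). Adam12 (0.65, SE 0.29) was not called without PH20_TG1, PH20_TG2, PH20_TG3, PH20_WT1 or PH20_WT3.

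Genes of the early response to stimuli rose in part. Of 43 tested, 5 were higher (Fosl1, Fosl2, Egr1, Dusp1 and Gadd45g), 1 was lower (Gadd45b) and the median log2 fold change was 0.33. Cyr61 (also called Ccn1), a secreted matrix protein and a classical target of YAP and TEAD, had FPKM of 3.18, 6.36, 4.52 and 3.34 in PH20_WT and 38.8, 8.79, 13.2 and 43.6 in PH20_TG. Dusp1, a phosphatase that switches off MAP kinases, had FPKM of 12.5, 10.1, 10.4 and 7.54 in PH20_WT and 51.6, 17.4, 17.2 and 52.8 in PH20_TG. In both genes every PH20_TG library lay above every control, and PH20_TG1 and PH20_TG4 lay far above PH20_TG2 and PH20_TG3. The log2 fold change was 2.30 for Cyr61 (SE 0.51) and 1.58 for Dusp1 (SE 0.41), with limma adjusted p-values of 0.664 for both. Without PH20_TG1 and PH20_TG4 they were 1.34 and 0.79, and both stayed called.

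The transcription factor genes Fos and Egr1 differed from these. Fos FPKM was 1.69, 1.92, 1.51 and 1.30 in PH20_WT and 23.1, 1.5, 2.01 and 21.6 in PH20_TG. Egr1 FPKM was 4.03, 4.32, 3.82 and 5.64 in PH20_WT and 25.5, 5.31, 7.22 and 53.6 in PH20_TG. Both stood high in PH20_TG1 and PH20_TG4 and near the controls in PH20_TG2 and PH20_TG3. Fos was not called (log2 fold change 1.93, SE 0.88) and Egr1 was (1.76, SE 0.65), and without PH20_TG1 and PH20_TG4 the changes were 0.12 and 0.48 and neither was called. Fos was called without PH20_TG2 (2.60) or PH20_TG3 (2.46) and was at 1.31 without PH20_TG1 and 1.34 without PH20_TG4. Egr1 was at 1.16 without PH20_TG4 and lost its call without PH20_TG1, PH20_WT1 or PH20_WT3. Gadd45g, a stress-induced gene of growth arrest, was higher (1.11, SE 0.33) and its relative Gadd45b lower (-1.46, SE 0.43). Without PH20_TG1 and PH20_TG4 the list had 4 higher, 5 lower and a median of -0.09, where 702 and 1042 of all 12532 genes were higher and lower. With the muscle and B cell scores as covariates it had 12 higher, 0 lower and a median of 0.78. Of 33 tested YAP-TEAD targets and mechanosensitive genes, 3 were higher, Cyr61, the coagulation starter F3 (0.69, SE 0.18) and the mechanosensitive channel Piezo1 (0.40, SE 0.15), and 1 was lower (median 0.11). Piezo1 was not called without PH20_TG1, PH20_TG2, PH20_WT1 or PH20_WT3.

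The promoters of Cyr61 and Dusp1 are shown because these 2 genes had the largest increases among the 39 genes described next, and were chosen after their values had been seen. In Cyr61 (RefSeq Ccn1, GRCm38.p6, chr3:145649936-145650235, - strand), capitals mark matches on the opposite strand to the TEAD motif GGAATG, 103 bases before the start, and to TGACG, the core of the cyclic AMP response element, 58 bases before it. In Dusp1 (chr17:26508423-26508722, - strand), they mark the full element TGACGTCA, 143 bases before the start.
Cyr61: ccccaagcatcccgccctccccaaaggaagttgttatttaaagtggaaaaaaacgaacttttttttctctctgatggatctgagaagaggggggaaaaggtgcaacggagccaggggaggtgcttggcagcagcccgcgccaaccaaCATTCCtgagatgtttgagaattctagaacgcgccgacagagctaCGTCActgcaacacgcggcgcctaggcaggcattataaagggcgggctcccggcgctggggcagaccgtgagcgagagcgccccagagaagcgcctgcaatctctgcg
Dusp1: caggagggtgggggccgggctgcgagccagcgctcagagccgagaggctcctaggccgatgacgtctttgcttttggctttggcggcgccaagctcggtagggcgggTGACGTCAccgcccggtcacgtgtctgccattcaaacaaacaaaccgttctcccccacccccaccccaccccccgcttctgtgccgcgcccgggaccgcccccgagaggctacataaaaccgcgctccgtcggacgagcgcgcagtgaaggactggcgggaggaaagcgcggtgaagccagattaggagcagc
All motifs were searched on both strands, and TGACG is part of TGACGTCA. Of all 32851 promoters, 14.7% hold GGAATG, 20.8% hold TGACG and 1.79% hold TGACGTCA.

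Of all genes called, 39 were called in the same direction in each of 12 other fits as well, namely with both scores as covariates, with the number of genes with a read as a covariate, without PH20_TG1 and PH20_TG4, without PH20_WT1 and PH20_WT3, and without each single library. Of these, 26 were higher and 13 lower. Fcer2a among them tracked the lymph node and Dnajb9 skeletal muscle, and the rest tracked neither. The 12 fits draw on the same 8 libraries and are not independent of each other. The 26 higher genes were Cyr61, Dusp1, Mettl24, Olfm2, Plk3, Adamts15, Hs3st6, Tnfrsf12a, Gadd45g, Sh3tc2, Fkbp5, Rabl2, Rab40b, Nrarp, Ier5l, Hes1, Bloc1s4, Yrdc, Gas2l1, Gm10039, Col5a3, Avpi1, Tsc22d1, Trp53i13, Dnajb9 and Cul7. Gas2l1, which crosslinks microtubules and actin (ENSMUSG00000034201), was among the tightest, with FPKM of 6.75, 7.98, 7.25 and 6.91 in PH20_WT and 12.3, 12.1, 11.3 and 11.0 in PH20_TG. It rose by 0.69 on the log2 scale (SE 0.11, limma adjusted p = 0.506). Tnfrsf12a, the receptor of the cytokine TWEAK, had FPKM of 2.71, 3.22, 4.85 and 5.00 in PH20_WT and 9.39, 7.81, 7.88 and 10.1 in PH20_TG (1.17, SE 0.22). Fkbp5, a chaperone partner induced by glucocorticoids, rose from 2.60 ± 0.491 to 4.92 ± 1.22 FPKM (SD, n = 4 each). In none of the 3 did the groups overlap.

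Hes1 and Nrarp, both known as direct targets of Notch signalling, belong to these 26. Hes1 FPKM was 5.55, 4.84, 6.20 and 5.33 in PH20_WT and 6.59, 7.90, 11.2 and 12.4 in PH20_TG (log2 fold change 0.75, SE 0.21). Nrarp FPKM was 1.32, 1.28, 0.962 and 0.812 in PH20_WT and 1.60, 2.26, 1.90 and 2.17 in PH20_TG (0.82, SE 0.22). Both genes were higher in all 4 PH20_TG libraries than in any control, and the limma adjusted p-value was 0.664 for each. The Notch ligand gene Jag2 (0.69, SE 0.23) and the receptor gene Notch3 of pericytes and smooth muscle (0.54, SE 0.20) were called as well, though their groups overlapped and Notch3 was not called without PH20_TG2, PH20_TG4 or PH20_WT1. These 4 genes were put together after their values had been seen.

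The 13 lower genes were Fcer2a, Mreg, Nudt17, A930005H10Rik, Eprs, Iars2, Ddx20, Bpnt1, 5330438D12Rik, Epb41l4aos, Sp1, Rbm4b and Crebrf. Sp1, a general transcription factor, had FPKM of 10.2, 8.52, 9.48 and 9.86 in PH20_WT and 8.19, 6.40, 6.16 and 6.13 in PH20_TG (log2 fold change -0.50, SE 0.14). Crebrf, a regulator of the glucocorticoid receptor and of nutrient stress, fell from 7.69 ± 0.697 to 5.63 ± 0.339 FPKM (SD, n = 4 each). Mreg, a melanosome and phagosome gene, fell from FPKM of 1.09 to 9.77 in PH20_WT to 0.0922 to 0.485 in PH20_TG (-2.76, SE 0.65), and was at -2.13 without PH20_WT1.

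The largest increases that tracked neither score and had no overlap also included Serpina3m, a serine protease inhibitor of the acute phase (log2 fold change 1.68, SE 0.46), Tmem267 (1.49, SE 0.46), Spry4, an inhibitor of receptor tyrosine kinase signalling (1.23, SE 0.32), and the endothelial lipase gene Lipg (1.21, SE 0.53). Spry4 FPKM was 1.79, 2.92, 2.64 and 2.20 in PH20_WT and 3.50, 10.6, 5.75 and 4.76 in PH20_TG. Lipg was called in 2 of the 8 fits that left out 1 library, those without PH20_WT1 or PH20_WT4, and the other 3 stayed called in all 8. The predicted genes Gm5627 (1.91, SE 0.54) and Gm13111 (1.52, SE 0.38) belong here too.

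Iars2, Bpnt1 and Eprs among the 13 are neighbours. They are consecutive tested genes on chromosome 1, Iars2 from 185284726 to 185329396 (- strand), Bpnt1 from 185332149 to 185357777 (+ strand) and Eprs from 185363044 to 185428360 (+ strand). Iars2 is the mitochondrial isoleucyl-tRNA synthetase, Bpnt1 a phosphatase of 3'-phosphoadenosine 5'-phosphate, and Eprs the cytosolic synthetase for glutamyl- and prolyl-tRNA. Eprs FPKM was 5.22, 6.42, 4.91 and 4.59 in PH20_WT and 2.81, 3.06, 2.61 and 2.50 in PH20_TG. Iars2 FPKM was 10.2, 15.4, 12.8 and 13 in PH20_WT and 4.95, 8.74, 8.12 and 5.96 in PH20_TG. Bpnt1 FPKM was 17.9, 28.7, 24.1 and 29.3 in PH20_WT and 10.5, 15.9, 17.0 and 12.2 in PH20_TG.

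None of the 3 overlapped between the groups, and their log2 fold changes were close to each other, at -0.91 for Eprs (SE 0.15), -0.90 for Iars2 (SE 0.21) and -0.84 for Bpnt1 (SE 0.21). The limma adjusted p-values were 0.506 for Eprs and 0.664 for Iars2 and Bpnt1. Of the 6 tested genes on each side, Hlx (-0.65, SE 0.20) was also lower and Rrp15 (0.37, SE 0.16) higher, and the other 10 were not called. Rrp15 was called in 2 of the 8 fits that left out 1 library, those without PH20_TG3 or PH20_WT1. In the Has2 comparison the same genes had log2 fold changes of -0.15 for Eprs (SE 0.17), -0.22 for Iars2 (SE 0.14) and -0.36 for Bpnt1 (SE 0.26), and none was called there. The difference between the comparisons was called for Eprs (-0.77, SE 0.21) and Iars2 (-0.67, SE 0.25) but not for Bpnt1 (-0.48, SE 0.36), with limma adjusted p-values of 0.567, 0.606 and 0.792.

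**Figure D5:**
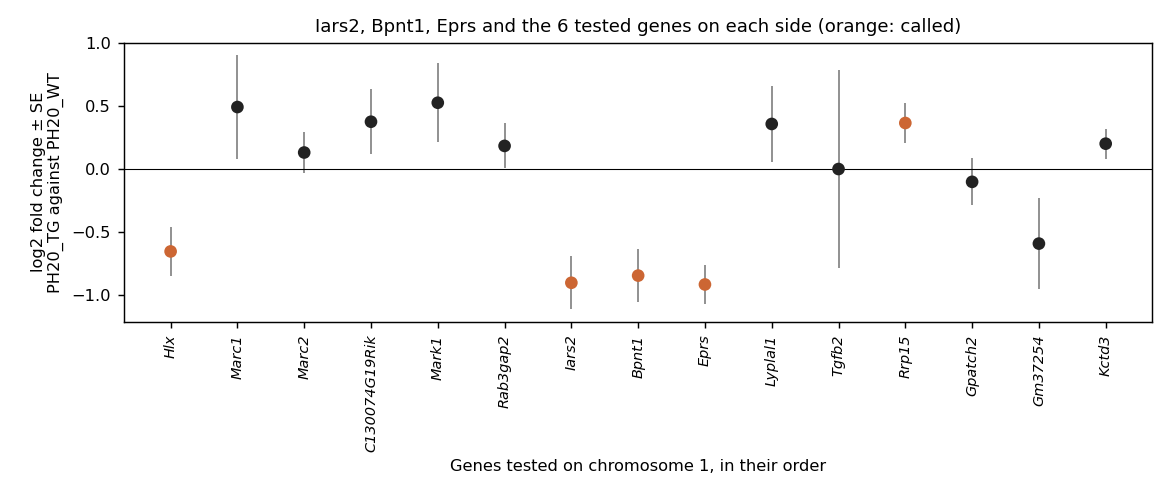
Points give the log2 fold change in PH20_TG against PH20_WT (vertical axis, bars 1 SE) of Iars2, Bpnt1, Eprs and the 6 tested genes on each side, in their order on chromosome 1 (horizontal axis). The 3 neighbours lie together between -0.91 and -0.84, and of the 12 genes beside them Hlx is lower and Rrp15 higher.

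A search after the values had been seen found 8 runs of at least 3 consecutive tested genes called in 1 direction, 4 higher and 4 lower. Besides the 3 genes above and Irs2, Col4a1 and Col4a2, the runs included Mogat2, Map6 and Serpinh1 on chromosome 7, all higher with no overlap, and Gimap8, Gimap9, Gimap4 and Gimap6 on chromosome 6, GTPase genes of lymphocytes, all lower. Of these 4, Gimap9 stayed called without any single library, and the others lost their calls without PH20_TG1, PH20_TG2, PH20_TG3 or PH20_WT3 among others. The fourth lower run lay in the Ifi200 cluster of chromosome 1, whose products sense DNA. Of its 12 tested genes 5 were lower (Ifi206, Ifi213, Ifi209, Ifi208 and Mndal) and 0 were higher. Ifi208 had FPKM of 1.87, 0.810, 1.78 and 0.423 in PH20_WT and 0.0333, 0.00956, 0.160 and 0.107 in PH20_TG (log2 fold change -2.78, SE 0.53). Ifi213 fell from FPKM of 0.873 to 4.27 to 0.132 to 0.770 (-2.41, SE 0.56). Neither overlapped, and Ifi206, Ifi213, Ifi209 and Mndal tracked the lymph node whereas Ifi208 tracked neither score, at a correlation of 0.79 with the B cell score. Ifi202b of the same cluster was at FPKM 16.4 in PH20_TG1 and at most 0.225 in the other 7 libraries.

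Among 37 interferon-stimulated genes, 4 were lower (Ifit1, Ifit2, Mx1 and Ifi47), 0 were higher and the median log2 fold change was -0.18. Ifit1, which binds viral RNA, had FPKM of 6.31, 6.63, 6.64 and 7.41 in PH20_WT and 5.65, 4.33, 4.42 and 4.84 in PH20_TG (-0.49, SE 0.13). Mx1, an antiviral GTPase, had 3.96, 1.93, 2.14 and 1.26 in PH20_WT and 0.771, 1.04, 0.808 and 1.19 in PH20_TG (-1.11, SE 0.33). Neither gene overlapped between the groups, and both stayed called without any single library. Ifit2 (-1.01, SE 0.39) lost its call without PH20_TG2, PH20_TG3, PH20_WT1 or PH20_WT4, as did Ifi47 (-0.81, SE 0.31), which tracked the lymph node. With the muscle score as a covariate 0 of the 37 were called (median -0.27), and likewise with both scores (median -0.28). With the B cell score alone 4 were lower. Without PH20_WT1 and PH20_WT3, 2 were lower, and without PH20_TG1 and PH20_TG4, 12 were.

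Adipocyte genes were not called, and most lay slightly above their controls. Of 32 tested genes of adipocyte identity and lipid storage, 0 were called at the unadjusted threshold and 30 had a log2 fold change above 0, with a median of 0.26. Adipoq, the hormone adiponectin, whose promoter drives rtTA, had FPKM of 765, 1409, 1101 and 1277 in PH20_WT and 936, 1748, 1539 and 1090 in PH20_TG. The nuclear receptor Pparg had 26.4, 54.4, 45.7 and 59.3 in PH20_WT and 38.5, 85.8, 107 and 40.8 in PH20_TG. Both were highest in PH20_TG2 and PH20_TG3, and in PH20_TG1 and PH20_TG4 they lay within the control range. The log2 fold changes were 0.21 for Adipoq (SE 0.30), 0.24 for the lipid droplet protein Plin1 (SE 0.32) and 0.47 for Pparg (SE 0.39). Without PH20_TG1 and PH20_TG4, 14 of the 32 were higher, the median was 0.61 and Pparg was at 1.11. Without PH20_WT1 and PH20_WT3, 0 were called and the median was -0.02.

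Genes of lipid synthesis had the same order of libraries. All 19 tested genes of de novo lipogenesis had a log2 fold change above 0 (median 0.46) and 0 were called, and without PH20_TG1 and PH20_TG4, 7 were higher. Without PH20_WT1 and PH20_WT3, 0 were called and the median was 0.05. As covariates, the B cell score gave a median of -0.09, both scores 0.06 and the muscle score 0.67. The regulator Srebf1 had FPKM of 53.1, 96.8, 86.1 and 103 in PH20_WT and 64.2, 216, 205 and 101 in PH20_TG, and was not called (0.66, SE 0.40). Of 23 genes of the cholesterol list, 4 were higher, among them the synthesis genes Mvd, Cyp51 and Tm7sf2, 0 were lower and the median was 0.35, and without PH20_TG1 and PH20_TG4, 13 were higher. Tm7sf2, a sterol reductase, had FPKM of 1.67, 1.80, 1.94 and 1.37 in PH20_WT and 2.37, 2.83, 3.19 and 2.48 in PH20_TG (0.65, SE 0.18). It had no overlap and stayed called without any single library. Mvd (0.67, SE 0.27) and Cyp51 (0.45, SE 0.17), both enzymes of the pathway, were not called without PH20_TG2, PH20_WT2, PH20_WT3 or PH20_WT4, Mvd not without PH20_TG1 and Cyp51 not without PH20_TG3. With both scores as covariates 0 of the 23 were called and the median was 0.09, and without PH20_WT1 and PH20_WT3, 1 was higher (median 0.29).

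The mice had not been exposed to cold, and most thermogenic genes were not called. Of 22 tested genes of thermogenic and beige fat, 1 was higher, Prdm16, 0 were lower and the median log2 fold change was 0.01. Ucp1, the uncoupling protein of beige and brown adipocytes, had FPKM of 9.98, 52.4, 32.6 and 28.4 in PH20_WT and 29.7, 11.8, 81.4 and 28.5 in PH20_TG. The groups overlapped widely, with the highest and the second lowest level both in PH20_TG. The log2 fold changes of the genes the study followed in cold were 0.19 for Ucp1 (SE 0.63), -0.26 for Cidea (SE 0.44), -0.22 for Pdk4 (SE 0.35), 0.08 for Ppargc1a (SE 0.26) and -0.13 for Cox7a1 (SE 0.48), and none was called. Prdm16, a regulator of beige fat, had FPKM of 1.17, 1.98, 1.51 and 1.5 in PH20_WT and 2.12, 4.26, 2.73 and 1.81 in PH20_TG (0.74, SE 0.28), and was not called without PH20_TG2, PH20_TG3, PH20_WT1, PH20_WT3 or PH20_WT4.

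Macrophage genes again divided the PH20_TG libraries. Of 27 tested, 1 was lower, Timd4, a receptor of resident macrophages, 0 were higher and the median log2 fold change was -0.32. Retnla, a product of alternatively activated macrophages, had FPKM of 844, 728, 849 and 935 in PH20_WT and 853, 111, 118 and 797 in PH20_TG. Lyve1, an HA receptor of resident macrophages and lymphatic vessels, had 14.8, 9.10, 12.2 and 14.1 in PH20_WT and 18.7, 1.57, 0.862 and 10.8 in PH20_TG. Both lay far below the controls in PH20_TG2 and PH20_TG3 and near them in PH20_TG1 and PH20_TG4, and neither was called. Retnla was called without PH20_TG1 (-1.93) or PH20_TG4 (-1.90) and Lyve1 without PH20_TG1 (-2.26), and Lyve1 moved from -1.55 to -0.84 without PH20_TG3. With PH20_TG1 and PH20_TG4 left out, 22 of the 27 were lower, against 1042 of all 12532 genes tested. The median was then -1.27, with Retnla at -2.87 and Lyve1 at -3.30. Timd4 (-1.46, SE 0.58) was not called without PH20_TG2 (-0.99), PH20_TG3, PH20_WT1 or PH20_WT3.

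Genes of the cytosolic ribosome lay slightly lower. Of 76 tested, 4 were lower (Rps6, Rps24, Rps27 and Rpl23a), 0 were higher, 6 had a log2 fold change above 0 and the median was -0.29. Rpl23a had FPKM of 337, 189, 231 and 232 in PH20_WT and 148, 162, 155 and 178 in PH20_TG (-0.59, SE 0.19). PH20_WT1, the library richest in B cell genes, had the highest level, and the groups did not overlap. Without PH20_WT1 and PH20_WT3 the median was -0.05, with 1 higher and 0 lower. Rps6 and Rps27 were not called without PH20_WT1, PH20_WT3, PH20_WT4, PH20_TG2 and 1 other PH20_TG library each, nor Rps24 without PH20_TG2. Ribosomal protein genes have many near-identical pseudogenes, so their values are uncertain. The same holds for Gapdh, called higher (2.06, SE 0.74) at FPKM of 0.907 to 1.37 in PH20_WT and 29.3, 2.29, 3.51 and 2.17 in PH20_TG, and without PH20_TG1 it was at 1.20.

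The PH20 difference was set against the Has2 difference to see which genes differed between the transgenes. The comparisons share no library, and an interaction term over all 16 libraries tested the difference between them. Of 12593 genes, 463 had a PH20 change above the Has2 change (3.68%) and 507 one below it (4.03%), at an unadjusted p-value under 0.05, and 0 passed adjustment with limma. Of 393 genes higher in PH20_TG and tested in both, 22 were also higher in Has2_TG (5.6%) and 13 were lower there (3.31%), where 6.24% and 3.72% of all 12297 genes tested in both were higher and lower with Has2. Of 404 lower ones, 24 were also lower in Has2_TG (5.94%) and 9 were higher (2.23%). For 133 of the 393 and 93 of the 404 the interaction was called in the same direction, but it contains the PH20 difference by which these genes were picked.

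Of the collagen genes described above, some differed. The interaction was 1.17 for Col15a1 (SE 0.40), 0.81 for Col5a3 (SE 0.33) and 0.72 for Col4a2 (SE 0.28), each called, where the Has2 changes were -0.45, -0.16 and -0.20. Fn1 differed the other way, with a called interaction of -3.60 (SE 1.41) and a Has2 change of 2.19. Col1a1 rose with Has2 by 1.53 on the log2 scale (SE 0.32), and its interaction was not called (-1.18, SE 0.76). The limma adjusted p-values of these 5 lay between 0.598 for Col15a1 and 0.738 for Col1a1. Mvd differed as well, at 0.67 in the PH20 and -0.97 in the Has2 comparison (interaction 1.65, SE 0.39, limma adjusted p = 0.567). For the B cell genes the comparisons had close values, at -3.75 and -3.63 for Cd79a (interaction -0.12, SE 2.23) and -3.85 and -4.22 for Fcer2a (0.37, SE 2.38). The intervals of these last differences are too wide to tell small differences from none. Has2 controls also differed among themselves, with a summed FPKM over 26 B cell genes of 1317 in Has2_WT1 and 1090 in Has2_WT2. In the other Has2 libraries it was 96.5 to 251, so in both comparisons single controls were rich in B cell RNA.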

How the data were processed

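Total RNA of inguinal fat, extracted with TRIzol, was made into Illumina TruSeq libraries. The authors deposited 1 table of FPKM for all samples, with a gene length column. The submitters' processing notes name FastQC 0.11.9, STAR 2.7.9a, MultiQC 1.12, DESeq2 and the mouse build GRCm38. FPKM times gene length gave whole reads for 100% of values (tolerance 0.01), from which the depth of each library was taken. Every column matched a sample, and the labels name no animal, so p-values measure only the spread between these samples. Since the table holds FPKM, the test was limma 3.58.1 with a variance trend in R 4.3.3, on the 8 PH20 libraries, for genes that averaged 50 reads or more, with Benjamini-Hochberg adjustment over all of them. An exact permutation test of 4 against 4 could not go below 0.0286. The procedure was tested on simulated data. Genes were named from the hyaluronan list, the 12 largest changes in each direction among called genes that tracked neither score and had no overlap, the 5 largest for muscle and for lymph node, the 3 smallest p-values in each list, the 5 smallest in each direction with both scores, and the study's cold and adipocyte genes. Not all of these are described, some are not reported here, and genes called in every listed fit, in neighbour runs or shown with promoters were added after their values were seen. The genes compared, the gene lists and the scores were chosen with earlier results of these data known. Alternatives were other pseudocounts, filters, scalings, covariates, voom weights, a replicate block, other tracking correlations, all 16 libraries together and each library left out. Promoters came from RefSeq (GRCm38.p6), which held one for 620 of the 826 called genes. Intervals and floors cover counting error only.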

Additional observations from a re-analysis of the deposited data

Results flagged for a closer look

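Dixon's ratio, the gap of the most extreme library to its neighbour over the range of its group, was computed on the log2 scale for the 161 named genes in both groups, and passed Dixon's 95% critical value in 12 of 322 groups of 4 libraries, where chance gives about 1 in 20. In PH20_TG it was 0.934 for A930005H10Rik (PH20_TG1 at FPKM 0.93, the others 1.41 to 1.45), 0.926 for Gusb (PH20_TG1 at 35.6, the others 14.0 to 15.0), 0.856 for Sp1 (PH20_TG1 at 8.19, the others 6.13 to 6.4), 0.919 for Des (PH20_TG4 at 13.3, the others 5.97 to 6.37) and 0.840 for Olfm2 (PH20_TG2 at 2.11, the others 3.39 to 3.71). Glycam1, at 0 in the other PH20_TG libraries and 0.0562 in PH20_TG3, had a ratio of 1.000. In PH20_WT it was 0.872 for Avpi1 (PH20_WT2 at 5.55, the others 6.42 to 6.56), 0.884 for Ifi206 (PH20_WT2 at 0.416, the others 3.83 to 5.02), 0.875 for Tmem267 (PH20_WT4 at 0.106, the others 0.493 to 0.589), 0.877 for Olfm2 (PH20_WT1 at 0.606, the others 1.45 to 1.64) and 0.922 for P4hb (PH20_WT3 at 105, the others 108 to 109). Ifi202b, at 0 in the other PH20_WT libraries and 0.225 in PH20_WT4, had a ratio of 1.000.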

How the results depend on the processing

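The counts moved with the libraries and covariates used. Leaving out PH20_TG1 and PH20_TG4 gave 702 higher and 1042 lower genes, 4 past adjustment, 175 lower genes that tracked the lymph node, and 690 higher and 823 lower genes that tracked neither. Leaving out PH20_WT1 and PH20_WT3 gave 262 lower genes and 11 that tracked the lymph node. Both pairs were chosen after seeing the data. With both scores there were 205 higher and 86 lower genes, of which 3 tracked muscle, 2 the lymph node and 187 and 81 neither. With the muscle score alone there were 213 and 133, of which 3 tracked muscle, 26 the lymph node and 213 and 104 neither. The lower genes that tracked the lymph node numbered 11 with the B cell score, 21 with the stroma score, 59 with all 16 libraries, 60 with voom weights, and 147 or 52 at a tracking correlation of 0.7 or 0.9, where 28 tracked muscle at 0.9. Testing every gene with a read gave 736 higher genes and 1419 called with both scores. Of 37 gene lists, 21 kept the sign of their median with the B cell score and 22 with the stroma score. With both scores the sign turned for Actn3 (0.089), Adam12 (-0.26), Atp2a1 (0.54), Clu (0.030), Gimap4 (0.18), Gimap6 (0.091), Klhl41 (0.11), Mvd (-0.29), Myh4 (0.64), Pvalb (0.48), Tcap (0.25), Ly6d (0.74), Ccr7 (3.06), H2-Oa (3.48) and P3h4 (1.27), and with the muscle score alone for Actn3 (0.19), Atp2a1 (0.19), Mvd (-0.22), Myh4 (0.19), Pvalb (0.29) and Tcap (0.34). Ccr7 and H2-Oa turned as well with the B cell score (2.91 and 2.86), with the stroma score (2.19 and 2.22) and without PH20_WT1 and PH20_WT3 (2.55 and 2.51). The cause was not tested. Without each single library, higher genes numbered 283 to 558, lower 274 to 650, past adjustment 0 to 0, lower muscle 38 to 51, lower lymph node 39 to 240, lower neither 195 to 434, higher neither 279 to 550, called with both scores 208 to 503, called in the interaction 640 to 1350, and lists of unchanged sign 29 to 36. Over 161 named genes and all settings, 3139 of 3855 values kept direction and side of the threshold. Depth sets the limit for genes such as Spam1, at 12 reads or fewer.

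Replicate numbers are shared between the groups, and same-numbered libraries deviated together in 2 of 4 pairs (correlations 0.35, 0.42, -0.03 and -0.04). Pairs of different number ranged from -0.36 to 0.31. The labels do not state a pairing, and whether the numbers mark one is not known. A replicate block gave 633 higher and 669 lower genes, 624 higher that tracked neither, 231 lower that tracked the lymph node and 507 called with both scores.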

Other observations

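Other cell types of the tissue were followed with lists that the report does not describe. Of 28 tested genes of adipocyte progenitors, 2 were higher, F3 and the receptor gene Pdgfrb, 0 were lower and the median log2 fold change was -0.10. Pdgfrb, which marks mural cells and progenitors, had FPKM of 10.3, 13, 10.8 and 13.7 in PH20_WT and 18.9, 16.1, 15.2 and 15.8 in PH20_TG, with no overlap. Of 16 genes of smooth muscle and pericytes, 3 were higher (Pdgfrb, Notch3 and the pericyte proteoglycan Cspg4) and 2 lower (Des and Tpm2), and Des and Tpm2 are also genes of skeletal muscle. Of 23 endothelial genes, 2 were higher, Egfl7 and Apold1, and 0 lower. Cspg4, Egfl7, Apold1, Atp5g3 and Hbb-bt each lost their calls when PH20_TG3 was left out, among other libraries.

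Of 20 adipokine and acute phase genes, 2 were higher, Serpina3m among them, and 0 lower, and of 20 genes of glycolysis, 1 was higher (Gapdh) and 3 lower (Eno3, Fbp2 and Pgam2). Pgam2, of muscle glycolysis, was at -3.31, or -2.02 without PH20_TG1 and -4.12 without PH20_TG4. Of 47 nuclear genes of oxidative phosphorylation, 1 was higher (Atp5g3), as was 1 of 6 red blood cell genes (Hbb-bt). In the lists of lipolysis, fatty acid oxidation, the circadian clock, mitochondrial oxidative phosphorylation, proliferation, type 2 inflammation, mast cells, Schwann cells and epithelium, 0 genes were called. Without PH20_TG1 and PH20_TG4, 12 progenitor genes were lower and 3 higher, with a median of -0.86, and 4 of 7 type 2 inflammation genes were lower. Ddit4l (-1.97, SE 0.54) and Sptb (-1.26, SE 0.34), 2 of the larger decreases that tracked neither score, had no overlap. Among fits that left out 1 library, both decreases were largest without PH20_TG4 (-2.34 and -1.48). The same held for the muscle genes Klhl41, Scn4a, Scn4b, Des and Fbp2. Whether muscle RNA carried the decreases of Ddit4l and Sptb was not tested.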
